A study of Mus musculus with 7 samples.

Results

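Macrophages are the most numerous immune cells of the heart and were followed here through 10 marker genes: Trem2, Cd68, Adgre1, Csf1r, Lyve1, Mrc1, C1qa, C1qb, Cd163 and Cd14. The genes were chosen by name as markers of resident and recruited macrophages, and all 10 were found among the 24421 gene rows of the count table. RNA sequencing covered whole left atria from adults of the outbred CD1 strain of mice, with 4 libraries labelled FOG2 overexpression and 3 labelled wild type. FOG2, encoded by Zfpm2, is a cofactor of GATA transcription factors. Animals of both groups had been kept off doxycycline for 1 week; the protocol calls them DTG and NTG animals without spelling these out, and the promoter that drives the overexpression is not given in the sources used here. Whether each library stands for its own animal is not stated, and every p-value below rests on library-to-library spread, some of which may be technical.

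Cardiac macrophages clear dying cells and debris, and resident ones are kept up largely by local division under the control of the growth factor receptor CSF1R. LYVE1, a hyaluronan receptor, together with MRC1 (CD206, the mannose receptor) and CD163, a scavenger receptor for haemoglobin bound to haptoglobin, is typical of long-lived resident macrophages around vessels. ADGRE1 is the F4/80 antigen and CD68 a glycoprotein of the lysosome and endosome. C1QA and C1QB are chains of C1q, which starts the classical complement pathway and is made mainly by macrophages. CD14 is the co-receptor that hands lipopolysaccharide to Toll-like receptor 4, and TREM2 is a lipid-sensing receptor that signals through the adaptor TYROBP. In whole tissue, fewer macrophages and less RNA per macrophage cannot be told apart.

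Of the 10 markers, Trem2 alone passed the test across all genes: it rose 2.78-fold in FOG2 overexpression atria, while the other 9 did not pass. Its promoter is shown with those of C1qb, the marker with the next smallest p, and Mrc1, the marker with most reads. The sequences are RefSeq's windows from 250 bases before to 50 after the annotated start in build GRCm38.p6, which matched 5 of the 10 markers (Trem2, Cd68, Mrc1, C1qb and Cd163), read 5′ to 3′ on the gene's own strand. Capitals mark GAGGAA or its reverse complement TTCCTC on the other strand, a core bound by the macrophage factor PU.1 and other ETS factors.
Trem2, chr17:48346151-48346450, plus strand: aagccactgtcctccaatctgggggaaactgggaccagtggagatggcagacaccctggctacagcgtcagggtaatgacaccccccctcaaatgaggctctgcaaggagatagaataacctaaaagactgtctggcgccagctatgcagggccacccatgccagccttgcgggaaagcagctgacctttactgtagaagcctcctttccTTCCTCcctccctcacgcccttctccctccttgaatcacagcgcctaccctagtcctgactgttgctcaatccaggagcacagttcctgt
C1qb, chr4:136886151-136886450, minus strand: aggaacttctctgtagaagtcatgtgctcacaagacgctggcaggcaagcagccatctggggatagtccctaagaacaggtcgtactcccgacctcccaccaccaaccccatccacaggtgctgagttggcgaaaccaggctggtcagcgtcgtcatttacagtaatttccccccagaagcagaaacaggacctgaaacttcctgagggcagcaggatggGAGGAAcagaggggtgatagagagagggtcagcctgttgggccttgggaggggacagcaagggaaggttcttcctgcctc
Mrc1, chr2:14229164-14229463, plus strand: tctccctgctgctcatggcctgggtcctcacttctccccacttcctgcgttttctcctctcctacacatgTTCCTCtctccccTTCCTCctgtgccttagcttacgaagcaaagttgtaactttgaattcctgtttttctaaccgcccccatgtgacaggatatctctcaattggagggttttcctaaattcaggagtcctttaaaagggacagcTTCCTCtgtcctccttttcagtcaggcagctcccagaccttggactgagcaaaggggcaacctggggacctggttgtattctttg
GAGGAA, searched on both strands, stood in 4 of the 5 marker promoters and in 31.3% of the 27025 genes with such a window. An E-box, spelled CACGTG, was searched on both strands and stood in 0 of the 5, against 8.09% of those genes. The TATA box, spelled TATAAA, likewise stood in 0 of the 5, against 15.7% of those genes. A match describes these letters and shows no binding.

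Reads counted to genes came to 5562520 to 8655655 per library, so that 1 count stood for 0.111 to 0.174 CPM (the share of a library's gene reads on a common scale, adjusted by TMM, a method that evens out differences in composition). Zfpm2 stood at 140.1, 222, 262 and 246 CPM in FOG2 overexpression replicates 1 to 4, against 31.7, 30.9 and 29.4 CPM in wild type replicates 1 to 3, so the labels and the targeted gene went together. The atrial markers Nppa, Myl7, Myl4 and Sln were present in every library. Of 13295 genes tested, 4.84% passed, 206 of them higher and 438 lower, and 19.2% had an unadjusted p under 0.05, the share against which every unadjusted count below is to be read. The total of 644 became 1151 without overexpression replicate 1, 429 without overexpression replicate 4, and 283, 256 and 396 without wild type replicates 1, 2 and 3. With library totals in place of TMM, 60.2% of the called genes were higher, against 32.0% with TMM. Overexpression replicate 1 stood apart, with r = 0.947 to 0.949 across genes to the other overexpression libraries, which had r = 0.978 to 0.983 among themselves. That replicate also held 488 CPM in the 10 proliferation genes together, against 33.4 to 47.7 CPM in the other 3 overexpression libraries and 22.6 to 48.5 CPM in wild type. It and wild type replicate 2 carried Y-linked transcripts (4908 counts of 4 genes in the overexpression library, 3943 in the wild type one) and almost no Xist, while the other 5 libraries had 6102 to 8884 Xist counts.

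Trem2 lies on the plus strand of chromosome 17 at 48346401 to 48354147 (GRCm38, the assembly that mm10 denotes). It had 7.33, 4.62, 4.35 and 4.31 CPM in FOG2 overexpression replicates 1 to 4, against 1.55, 1.27 and 2.71 CPM in wild type replicates 1 to 3. Every overexpression library lay above every wild type library, with replicate 1 the highest and wild type replicate 3 nearest to the overexpression range. The means were 5.15 ± 1.46 CPM (SD, n = 4) in overexpression and 1.84 ± 0.763 CPM (SD, n = 3) in wild type, which is 1.47 ± 0.35 as a log2 fold change with its SE. The 95% interval of the fold was 1.61 to 4.79, and the p adjusted by Benjamini-Hochberg in edgeR's quasi-likelihood fit was 0.0464. These levels rest on 66, 32, 25 and 37 reads in overexpression and 13, 9 and 22 reads in wild type, the fewest of the 10 markers in all 7 libraries. Groups that do not overlap were found in 19.8% of all tested genes, 1.55% passed the test as higher and 3.29% as lower, beside 1 of 10 markers higher and 0 lower; a count of 1 supports no statement on the markers as a set.

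**Figure D1:**
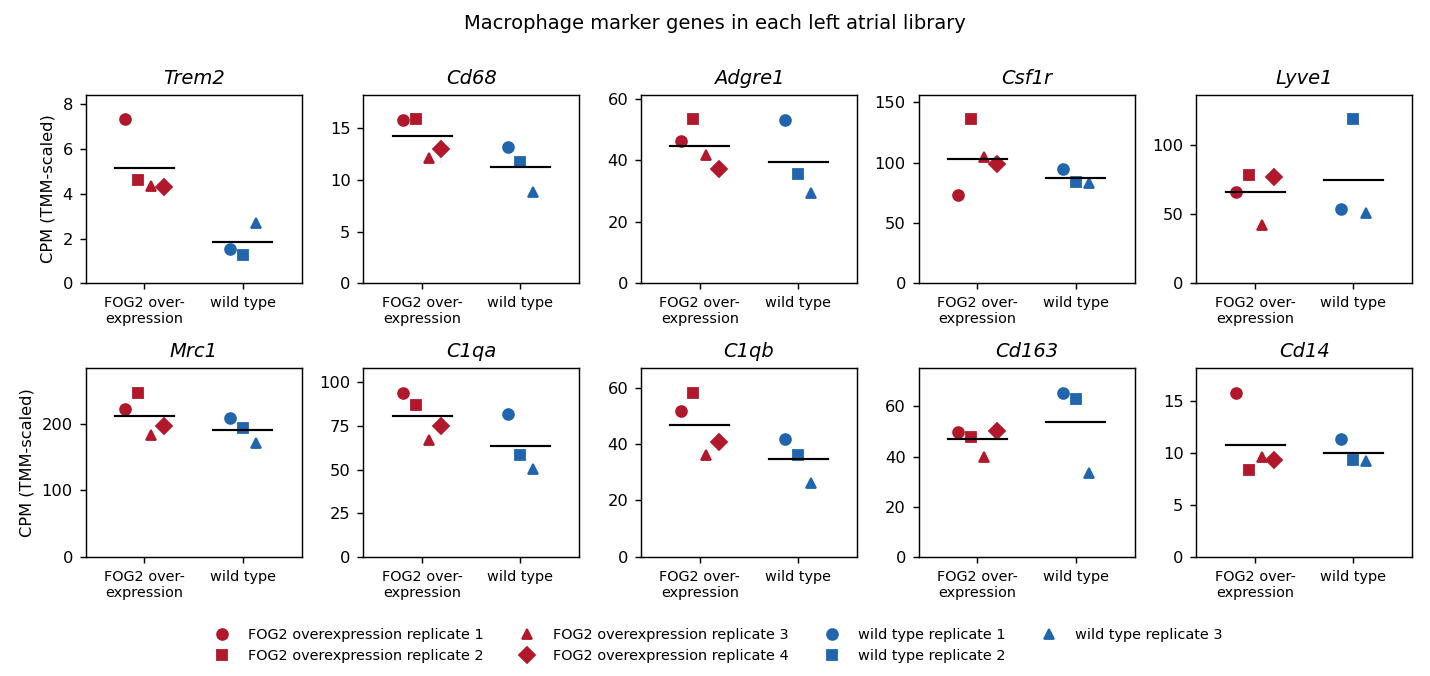
CPM of the 10 macrophage markers in each library, with FOG2 overexpression left of wild type in each panel, 1 point per library and a line at the group mean; each vertical axis starts at 0. In Trem2 the groups do not overlap (4.31 to 7.33 CPM in overexpression, 1.27 to 2.71 CPM in wild type), and in the other 9 markers they do.

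The Trem2 call depended on single libraries, although its direction did not. The adjusted p was 0.0825, 0.0769 and 0.0732 without overexpression replicates 2, 3 and 4, and 0.180 and 0.189 without wild type replicates 1 and 2. It remained under the threshold without overexpression replicate 1 (log2 fold change 1.25 ± 0.32, adjusted p = 0.0358 in edgeR), the library rich in proliferation transcripts, and without wild type replicate 3 (1.86 ± 0.37, adjusted p = 0.0421). In the 5 libraries with Xist alone, Trem2 had 4.62, 4.35 and 4.31 CPM in overexpression and 1.55 and 2.71 CPM in wild type, with a log2 fold change of 1.05 ± 0.34 and an edgeR adjusted p of 0.115. The libraries with Y-linked transcripts had 7.33 CPM in overexpression and 1.27 CPM in wild type, 1 library each and so without a test. DESeq2 and limma-voom called Trem2 too, with adjusted p = 0.00824 and 0.0494.

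**Figure D2:**
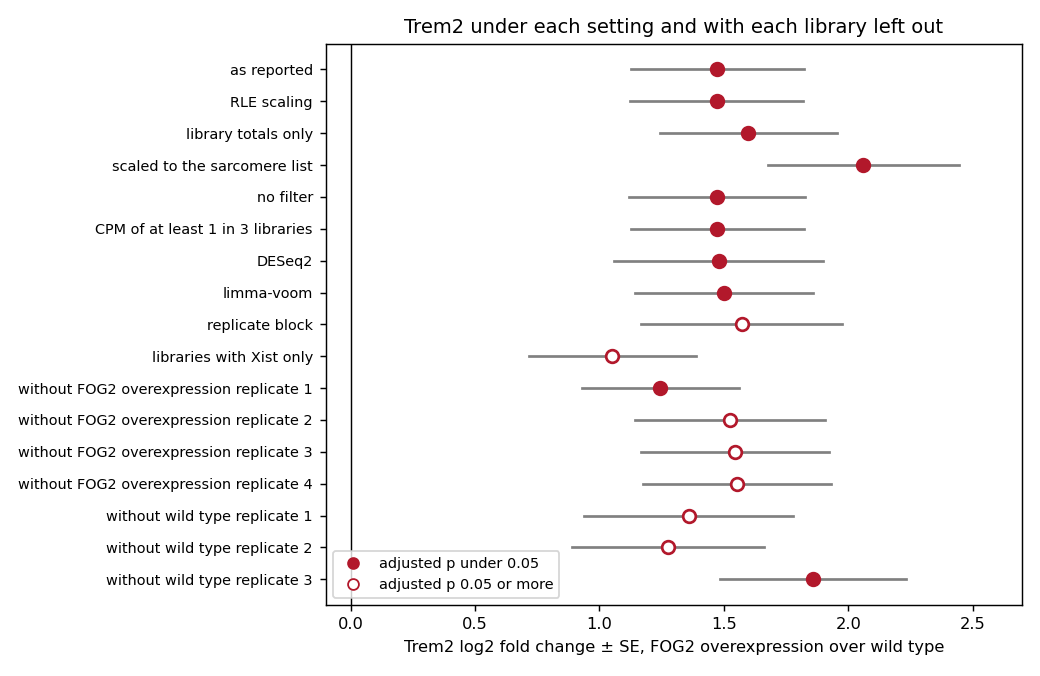
Log2 fold change of Trem2 (FOG2 overexpression over wild type, horizontal axis) with its SE as bars, for the result as reported and 16 alternatives down the vertical axis; filled points passed an adjusted p of 0.05. All 17 values lie between 1.05 and 2.06, and 7 of the alternatives did not pass.

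Set against the other markers, Trem2 made up 1.14% (exact binomial interval 0.885 to 1.45), 0.627% (0.430 to 0.885), 0.804% (0.521 to 1.19) and 0.714% (0.503 to 0.982) of all marker reads in overexpression replicates 1 to 4. In wild type replicates 1 to 3 it made up 0.248% (0.132 to 0.424), 0.207% (0.0949 to 0.393) and 0.582% (0.365 to 0.879), so wild type replicate 3 was within counting error of 3 overexpression libraries. On the log2 scale Trem2 stood at -3.21 ± 0.31 relative to the mean of the other 9 in overexpression (SD, n = 4) and at -4.43 ± 0.75 in wild type (SD, n = 3). The difference of 1.22 is a description, since Trem2 was singled out by its call. Per read of Tyrobp, the adaptor of TREM2, Trem2 had 0.258, 0.166, 0.212 and 0.224 reads in overexpression and 0.0850, 0.0692 and 0.188 in wild type, where wild type replicate 3 fell inside the overexpression range. Per read of Cd68 the ratios were 0.465, 0.291, 0.357 and 0.330 in overexpression and 0.117, 0.108 and 0.306 in wild type, which also overlapped.

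The other 9 markers had log2 fold changes of -0.20 to 0.43 with edgeR adjusted p of 0.294 to 0.828, and all 9 intervals included no change. Each of these 95% intervals lay inside a 2-fold change in either direction, between 0.524-fold and 1.85-fold. A change within a marker's own interval is compatible with these libraries. Over all 10 the median log2 fold change was 0.21, beside 0.02 over all tested genes, and 8 of the 10 were above 0, as were 53.2% of all tested genes. The reads of all 10 markers together came to 642, 737, 541 and 603 CPM in overexpression replicates 1 to 4 and to 625, 613 and 466 CPM in wild type replicates 1 to 3. Those sums overlapped, with wild type replicate 3 lowest and overexpression replicate 2 highest.

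**Figure D3:**
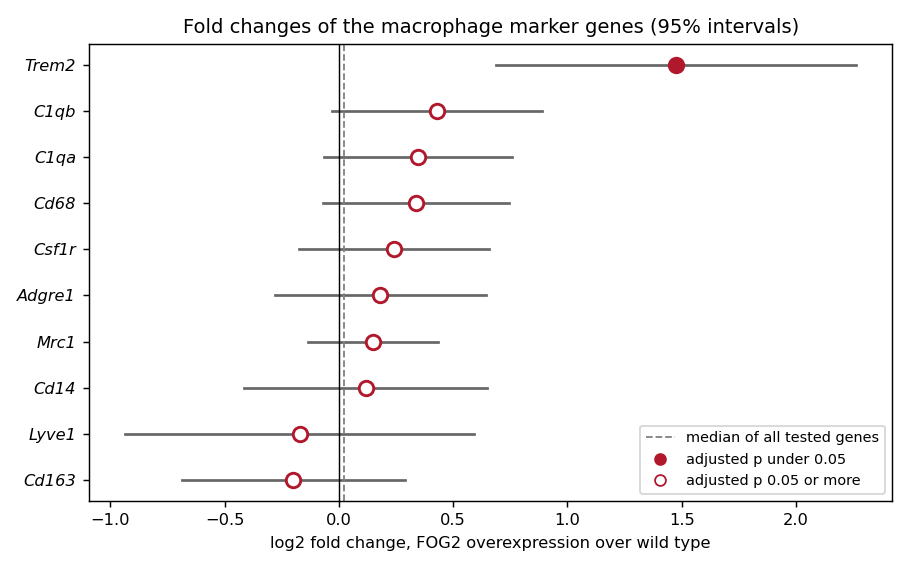
Log2 fold change (FOG2 overexpression over wild type) of each marker with its 95% interval, sorted from top to bottom; filled points passed an adjusted p of 0.05 and the dashed line is the median of all tested genes, 0.02. Trem2 stands at 1.47, and the other 9 lie between -0.20 and 0.43 with intervals that include 0.

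The general macrophage markers Csf1r, Cd68 and Adgre1 did not pass, and the groups overlapped in each. Csf1r, the receptor on which macrophage survival depends, had 72.9, 136, 105 and 99.3 CPM in FOG2 overexpression replicates 1 to 4, against 94.6, 84.0 and 83.1 CPM in wild type. Its lowest and its highest library were both overexpression ones, replicates 1 and 2, so the wild type values lay inside the overexpression range (log2 fold change 0.24 ± 0.18). In the annotation Csf1r overlaps Hmgxb3 on the opposite strand, and without a stated strand setting the reads of that overlap cannot be told apart. Cd68 had 15.8, 15.9, 12.2 and 13.03 CPM in overexpression and 13.2, 11.7 and 8.87 CPM in wild type (0.34 ± 0.18). Adgre1 had 46.3, 53.4, 41.8 and 37.4 CPM in overexpression and 53.1, 35.6 and 29.4 CPM in wild type (0.18 ± 0.20). In both genes wild type replicate 3 was the lowest library, and the groups overlapped through wild type replicate 1.

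The C1q chains ordered the libraries almost alike. C1qa had 93.96, 86.8, 66.8 and 75.1 CPM in FOG2 overexpression replicates 1 to 4, against 82.04, 58.5 and 50.1 CPM in wild type replicates 1 to 3 (log2 fold change 0.34 ± 0.18, edgeR adjusted p = 0.350). C1qb had 51.5, 58.2, 36.2 and 40.6 CPM in overexpression and 41.6, 36.2 and 26.2 CPM in wild type (0.43 ± 0.20, edgeR adjusted p = 0.294). Both were lowest in wild type replicate 3, and in both the groups overlapped. C1qc, the third chain of the same protein and no member of the marker set, stood at 0.50 ± 0.18 (edgeR adjusted p = 0.164). The 3 genes lie on the minus strand of chromosome 4 within 18.7 kb. C1qa had 1.82, 1.49, 1.85 and 1.85 reads per C1qb read in overexpression and 1.97, 1.62 and 1.91 in wild type, a narrow range in both groups.

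Markers of resident macrophages stood on both sides of 0. Mrc1 had 222, 247, 183 and 197 CPM in FOG2 overexpression replicates 1 to 4, against 208, 194 and 172 CPM in wild type (log2 fold change 0.15 ± 0.13). Cd163 had 49.9, 47.8, 39.8 and 50.03 CPM in overexpression and 65.5, 62.8 and 33.5 CPM in wild type (-0.20 ± 0.22). All 4 overexpression values of Cd163 fell between the wild type ones, of which replicates 1 and 2 were high and replicate 3 low. Its log2 fold change was -0.45 without wild type replicate 3 (edgeR adjusted p = 0.109). Leaving out replicate 1 of that group gave -0.04, and leaving out its replicate 2 gave -0.08. Lyve1 had 66.1, 78.4, 42.4 and 77.03 CPM in overexpression and 53.8, 119 and 51.1 CPM in wild type (-0.17 ± 0.33). The value of 119 CPM was in wild type replicate 2, 1 of the libraries with Y-linked transcripts. Without it the direction turned, to 0.33 ± 0.23, and in the libraries with Xist alone Lyve1 stood at 0.34 ± 0.26. The other such library, overexpression replicate 1, had 66.1 CPM, inside the range of the rest. Lyve1 is also known from lymphatic endothelium, whose markers were present: Prox1, Flt4, Pdpn, Reln and Mmrn1 were tested, and Ccl21a was at 0 in every library. Together these 6 genes came to 154 to 186 CPM in overexpression and 99.1 to 136 CPM in wild type. None of the 5 passed in edgeR. An unadjusted p under 0.05 was found for 3, beside 19.2% of all tested genes, and DESeq2 called 2, Reln and Mmrn1, as higher. The log2 fold change was positive for 4 of the 5, beside 53.2% of all tested genes. Prox1 went the other way, at -0.10 ± 0.22 (edgeR adjusted p = 0.852), with overlapping groups. In edgeR Reln passed without overexpression replicate 1 (adjusted p = 0.0422) or wild type replicate 3 (0.00805), and Mmrn1 without wild type replicate 3 (0.0177). The part of lymphatic vessels in the Lyve1 level was not tested.

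Cd14, which monocytes carry as well as macrophages, had 15.8, 8.38, 9.57 and 9.31 CPM in FOG2 overexpression replicates 1 to 4, against 11.3, 9.32 and 9.24 CPM in wild type (log2 fold change 0.12 ± 0.24). Overexpression replicate 1 stood above every other library, and without it the log2 fold change was -0.14. Trem2 and Cd14 were both highest in that replicate, whereas Csf1r was lowest there.

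**Figure D4:**
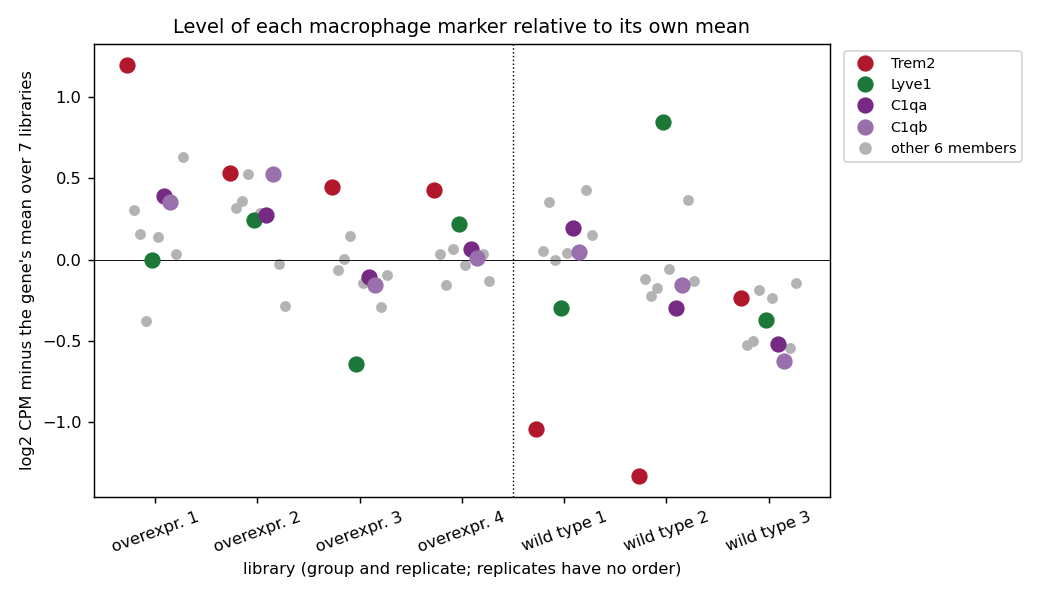
Log2 CPM of each marker minus its own mean over the 7 libraries, by library, with FOG2 overexpression left of the dotted line; Trem2, Lyve1, C1qa and C1qb are coloured and the other 6 are grey. Trem2 lies above 0 in all 4 overexpression libraries and below 0 in all 3 wild type ones, while Lyve1 is highest in wild type replicate 2.

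Per kilobase of annotated exon, C1qa was the most abundant marker, with a mean of 77.6 ± 11.6 CPM per kb in overexpression (SD, n = 4) and 61.1 ± 15.9 in wild type (SD, n = 3). After it came C1qb (42.9 CPM per kb in overexpression, 31.9 in wild type), Mrc1 (33.3 in overexpression, 30.04 in wild type) and Lyve1 (22.6 in overexpression, 25.6 in wild type). Lower levels were found for Csf1r (17.9 in overexpression, 15.1 in wild type), Adgre1 (13.8 in overexpression, 12.2 in wild type) and Cd68 (11.3 in overexpression, 8.97 in wild type). Cd163 followed with 8.59 in overexpression and 9.88 in wild type, and Cd14 with 6.21 in overexpression and 5.75 in wild type. Trem2 was last, with 1.04 ± 0.295 CPM per kb in overexpression (SD, n = 4) and 0.373 ± 0.154 in wild type (SD, n = 3). With the exon lengths used here, only the last step, between Cd14 and Trem2, was wider than the spread over the 7 libraries. The ranges of all other neighbours overlapped. Compared within each library, C1qa lay above C1qb, Adgre1 above Cd68, Cd163 above Cd14 and Cd14 above Trem2 in all 7. The remaining steps held in 5 or 6 of the 7 libraries. Exon lengths were unions over all annotated transcripts, so levels per kb are approximate. The union was 4946 bases for Trem2 and 1732 bases for Cd14, so the width of the last step depends on these lengths. Not divided by length, Trem2 had 1.27 to 7.33 CPM and Cd14 8.38 to 15.8 CPM.

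Genes with the profile most like the mean of the markers were sought among 13245 other genes with at least 1 CPM on average, by the root mean square difference of centred log2 CPM over the 7 libraries. The 8 nearest were Ftl1, the ferritin light chain, Naa60, Tlr4, Rexo4, Smarca5, Cfap36, Pde3b and Lilrb4a, with differences of 0.0513 to 0.0833. Ftl1 and Lilrb4a have near-identical copies in the genome, so their counts are uncertain. For comparison, the markers themselves ranged from 0.0569 in Cd68 and 0.0890 in Mrc1 to 0.676 in Trem2, the one least like the mean. Tlr4 had 71.3, 74.4, 52.4 and 59.7 CPM in overexpression and 58.1, 59.5 and 42.6 CPM in wild type. The mean profile varied little, so a likeness to it describes small differences between libraries.

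Other macrophage genes gave a similar picture. All 19 general macrophage genes outside the marker set were tested: 0 passed in edgeR, DESeq2 or limma-voom, 4 had an unadjusted p under 0.05 in edgeR, near the 19.2% of all tested genes, and 17 had a positive log2 fold change, beside 53.2% of all tested genes. Their median was 0.44, beside 0.02 over all genes. Fcgr1, the high-affinity Fc receptor, had 9.11, 6.79, 5.57 and 8.03 CPM in overexpression against 5.13, 4.10 and 2.83 CPM in wild type, without overlap (0.88 ± 0.27, edgeR adjusted p = 0.107). Tyrobp had 28.4, 27.9, 20.5 and 19.2 CPM in overexpression against 18.2, 18.4 and 14.4 CPM in wild type (0.50 ± 0.18, edgeR adjusted p = 0.168). Of 14 resident macrophage genes 0 passed in edgeR, 2 had an unadjusted p under 0.05, which is no larger a share than the 19.2% of all tested genes, and the median was 0.30. A positive log2 fold change was found for 13 of the 14, beside 53.2% of all tested genes. The 14 genes summed to 1365 to 1561 CPM in overexpression and 1203 to 1311 CPM in wild type. Those sums did not overlap, as was so for 19.8% of all tested genes taken singly. Most of each sum came from Gas6, Stab1, Igf1 and F13a1, and in each of these genes the groups overlapped. Gas6 alone had 341 to 516 CPM in overexpression and 358 to 398 CPM in wild type. Sums without these genes were not compared. The resident gene with the smallest p was Pf4, a chemokine, with 31.1, 38.3, 22.1 and 30.95 CPM in overexpression against 22.1, 18.9 and 18.1 CPM in wild type (0.64 ± 0.18). Its adjusted p was 0.0824 in edgeR, 0.0317 in DESeq2, where Pf4 alone of the 14 was called, and 0.0313 in edgeR without overexpression replicate 3. Gas6, a ligand of receptors that clear dying cells, passed in edgeR without overexpression replicate 1 (0.40, adjusted p = 0.0264). Timd4, a receptor for dying cells on resident macrophages, stood at 0.08 ± 0.23.

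**Figure D5:**
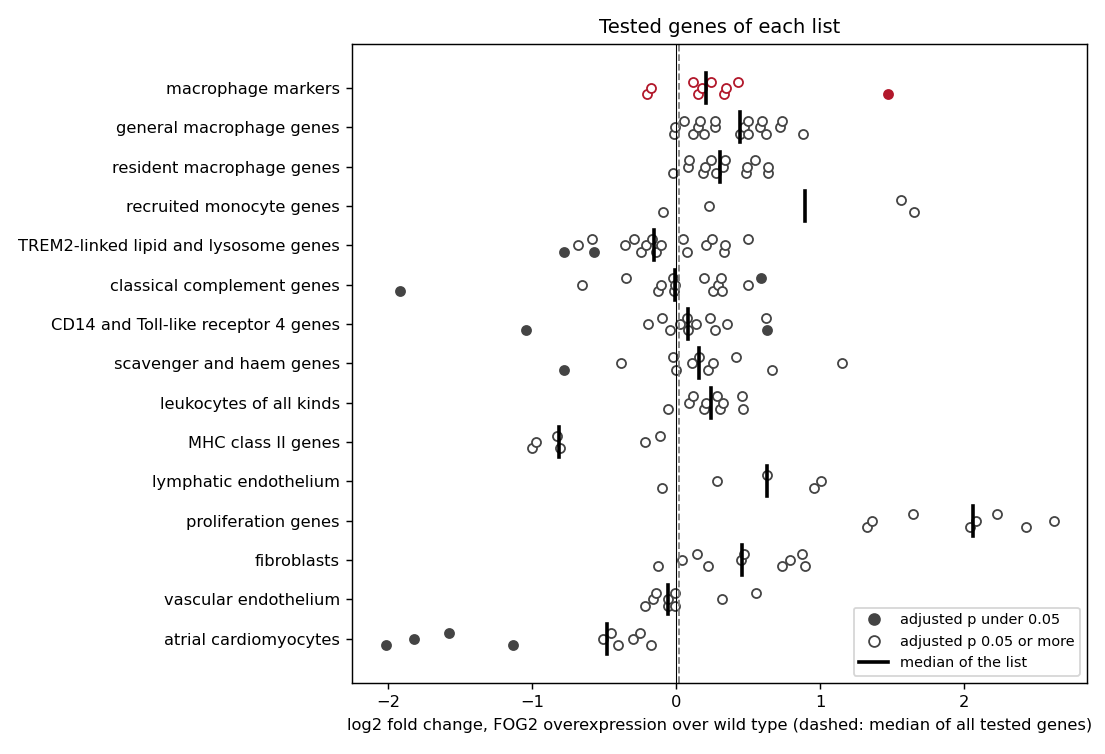
Log2 fold change (FOG2 overexpression over wild type, horizontal axis) of the tested genes of 15 lists, 1 point per gene, filled where the adjusted p was under 0.05, with a bar at each list's median; the dashed line is the median of all genes, 0.02. The macrophage markers have a median of 0.21 with 1 filled point, the general macrophage genes 0.44 with none, and the atrial cardiomyocyte genes -0.48 with 4.

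Genes of recruited monocytes were scarce: 4 of 11 had enough reads to test, and 0 of them passed in edgeR, with 2 at an unadjusted p under 0.05 (19.2% of all tested genes). Ccr2, the chemokine receptor of recruited monocytes, had 9.33, 11.7, 8.52 and 2.33 CPM in overexpression against 10.4, 6.07 and 8.74 CPM in wild type (-0.09 ± 0.45). The other defining gene, Ly6c2, was at 0 to 1.86 CPM in every library and was not tested. Nr4a1, a factor of patrolling monocytes that other stressed cells also switch on, had 135, 48.4, 44.4 and 78.9 CPM in overexpression against 13.6, 25.4 and 34.6 CPM in wild type (1.65 ± 0.46, edgeR adjusted p = 0.0927, DESeq2 adjusted p = 0.0311). Plac8, an interferon-responsive monocyte gene, had 1.33, 4.04, 2.09 and 5.12 CPM in overexpression against 1.31, 1.13 and 0.739 CPM in wild type (1.56 ± 0.51), and passed without overexpression replicate 1 (edgeR adjusted p = 0.0184).

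Ligands of CSF1R did not pass. Csf1 had 80.97, 92.1, 77.2 and 77.03 CPM in overexpression against 64.2, 60.2 and 76.5 CPM in wild type (0.29 ± 0.11, edgeR adjusted p = 0.210), and Il34, the other ligand, had 6 to 18 reads in every library. Of 8 genes of this ligand and receptor family, 6 were tested and 0 passed in edgeR, DESeq2 or limma-voom, with 2 at an unadjusted p under 0.05.

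Of 19 genes tied to TREM2 by lipid handling and lysosomes, 18 were tested, 0 passed as higher and 2 as lower, with a median log2 fold change of -0.15; DESeq2 called 4 as lower, with Lpl and Ctsb added. An unadjusted p under 0.05 was found for 8 of the 18, beside 19.2% of all tested genes; 3 of these had positive log2 fold changes, Tyrobp (0.50 ± 0.18), the lysosomal lipase Lipa (0.34 ± 0.12) and the tetraspanin Cd9 (0.33 ± 0.14). The ones that fell were Ctsd, a lysosomal protease (-0.57 ± 0.10, edgeR adjusted p = 0.0157), and Cd36, a fatty acid carrier that cardiomyocytes and capillaries also carry (-0.78 ± 0.16, edgeR adjusted p = 0.0237). Scaled to sarcomere genes, described at the end, Ctsd stood at 0.02 and Cd36 at -0.18 (edgeR adjusted p = 0.340). With that scaling 7 of the 18 passed as higher and 0 as lower, beside 8426 of all 13295 tested genes as higher and 172 as lower. Ctsd had 502, 504, 508 and 586 CPM in overexpression against 768, 760.1 and 809 CPM in wild type. Its adjusted p was 0.0508 without overexpression replicate 3 and 0.0689, 0.0705 and 0.0686 without wild type replicates 1, 2 and 3, and that of Cd36 was 0.0722 without overexpression replicate 3 and 0.108 and 0.0928 without wild type replicates 2 and 3. Gpnmb and Lgals3, genes of lipid-laden macrophages, stood at -0.68 ± 0.41 and 0.25 ± 0.54, and Spp1 was at 0 to 1.16 CPM and not tested. Most genes of this list are also expressed by other cells of the atrium.

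Among classical complement genes, 15 were tested, with a median of -0.00705, and 1 passed as higher and 1 as lower in edgeR. An unadjusted p under 0.05 was found for 6 of the 15, beside 19.2% of all tested genes. Cd59a, which blocks the membrane attack complex, rose (0.59 ± 0.11, edgeR adjusted p = 0.0201), with 79.7, 84.2, 85.2 and 84.7 CPM in overexpression against 55.5, 47.03 and 63.8 CPM in wild type. It did not pass without overexpression replicates 2, 3 or 4 (adjusted p of 0.0538, 0.0526 and 0.0552) or without wild type replicates 1 or 2 (0.0932 and 0.0881). Masp1, a protease of the lectin pathway, fell to 1.89, 2.31, 1.91 and 1.98 CPM in overexpression, against 9.18, 8.05 and 5.79 CPM in wild type (-1.92 ± 0.24, edgeR adjusted p = 0.00259). DESeq2 called C4b as lower too. C4b had 56.6, 53.6, 38.3 and 47.9 CPM in overexpression against 103, 70.1 and 60.0 CPM in wild type (-0.66 ± 0.20, edgeR adjusted p = 0.103).

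Around CD14, 13 genes of lipopolysaccharide sensing were tested, with a median of 0.08, and 1 passed as higher and 1 as lower. Lbp, which loads lipopolysaccharide onto CD14, fell to 92.2, 98.5, 81.6 and 104 CPM in overexpression, against 169, 230.2 and 183 CPM in wild type (-1.05 ± 0.13, edgeR adjusted p = 0.00230). Tlr2, a receptor for bacterial lipoproteins that also uses CD14, rose to 18.8, 20.1, 22.1 and 18.6 CPM in overexpression, against 13.4, 10.3 and 14.7 CPM in wild type (0.63 ± 0.15, edgeR adjusted p = 0.0477). The Tlr2 call held without overexpression replicate 1 but not without any other single library, where its adjusted p was 0.101, 0.109 and 0.0889 (overexpression replicates 2 to 4) and 0.147, 0.177 and 0.0623 (wild type replicates 1 to 3). Of 11 scavenger receptor and haem genes tested, 0 passed as higher and Cd36 alone as lower, with a median of 0.16. Hmox1, which breaks down the haem that CD163 helps to take up, stood at 0.25 ± 0.26.

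Leukocytes as a whole gave 117 to 180.2 CPM over 10 genes in overexpression and 105 to 140 CPM in wild type, and 0 of the 10 passed in edgeR, DESeq2 or limma-voom, with 1 at an unadjusted p under 0.05. Ptprc, the CD45 antigen, had 26.9, 33.9, 22.6 and 20.4 CPM in overexpression against 25.04, 21.2 and 17.7 CPM in wild type. Markers of other leukocytes were summed as well. T and NK cell genes came to 2.55 to 5.34 CPM in overexpression and 2.96 to 6.78 CPM in wild type. B cell genes came to 0.931 to 2.09 CPM in overexpression and 2.15 to 2.26 CPM in wild type. Neutrophil genes summed to 5.22 to 14.5 CPM in overexpression and 4.24 to 10.9 CPM in wild type. Mast cell genes summed to 5.12 to 20.3 CPM in overexpression and 10.6 to 14.5 CPM in wild type, most of it Kit, which other cells express too.

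Beside the macrophage genes, fibroblast markers summed to 16051 to 19504 CPM in overexpression and 11592 to 16433 CPM in wild type, with a median log2 fold change of 0.46, and 0 of 10 passed in edgeR, with 5 at an unadjusted p under 0.05 (19.2% of all tested genes) and 2, Col1a1 and Col1a2, called as higher by DESeq2. Among activated fibroblast genes Acta2 alone of 11 passed, as higher (5.05 ± 0.33, edgeR adjusted p = 1.37e-04). DESeq2 called Lox as higher too, and edgeR called Fn1 as lower without overexpression replicate 1. Which cells held the Acta2 reads was not tested. The 12 genes of that list summed to 2886 CPM in overexpression replicate 1 and 1353 to 1502 CPM in the other overexpression libraries, against 868 to 982 CPM in wild type; their part in the Trem2 and Cd14 levels of that replicate was not tested. Vascular endothelial markers had a median of -0.06 (0 of 9 passed in edgeR, 0 at an unadjusted p under 0.05), and atrial cardiomyocyte genes of -0.48, with 4 of 10 lower (Myl7, Sln, Ryr2 and Kcnj3). Of 26 sarcomere genes 7 were lower. The markers were also scaled to 26 sarcomere genes: the median of all genes then became 0.62 and that of the macrophage markers 0.81, so the markers stood 0.20 above all genes, against 0.19 with TMM. With that scaling 8 of the 10 markers passed, as did 8426 of all tested genes as higher. Lyve1 and Cd163 turned positive, at 0.46 and 0.40, without passing.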

How the data were processed

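The deposited table held whole-number read counts per gene for 7 libraries, with no normalization by the authors. Per the submitters' processing notes, STAR, HTSeq 0.6.0 and DESeq2 were used with mm10, with no roles stated; neither annotation nor strand setting was given. A label speaks of polyA RNA but the protocol of ribosomal RNA removal, which leaves the selection unclear. Rows naming no gene were left out, namely reads outside features (23.4% to 30.5%), reads that aligned more than once (37.1% to 43.4%) and ambiguous reads (0.101% to 0.254%).

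Genes were filtered with filterByExpr (minimum count 10, minimum total 15), scaled with TMM and then fitted in R 4.3.3 with edgeR 4.0.16 and its two-sided quasi-likelihood F test with robust dispersions, with no covariate; p-values were adjusted over all 13295 tested genes by Benjamini-Hochberg, and those under 0.05 were called. An SE is the size of a log2 fold change divided by the square root of F. The test was checked on simulated counts. All 10 markers passed the filter. Lengths and positions came from GENCODE M21 by symbol. Intervals of shares are exact binomial (Clopper-Pearson, 95%) and cover counting error only.

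The markers and all 22 other lists were chosen with earlier results of these data known. Genes named are the 10 markers, Zfpm2, up to 4 genes of each list by p with its defining markers, and the 8 genes nearest in profile. Others named (Timd4, Gpnmb, Lgals3, Spp1, Hmox1, Lipa, Cd9, Fn1) were chosen after their values were seen. Alternatives were RLE scaling, library totals only, scaling to the sarcomere list, tests without a filter or with 1 CPM or more in 3 libraries, DESeq2 1.42.0, voom from limma 3.58.1, the replicate number as a block, the libraries with Xist only, and each library left out in turn.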

Additional observations from a re-analysis of the deposited data

Results flagged for a closer look

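In the overexpression group, of 4 libraries, 97 named genes were checked for a library whose distance from the nearest of the others took up more of the whole range than Dixon's 95% critical value allows; 15 had one, where chance gives about 1 in 20, and libraries share their deviations across genes. Among the markers these were Trem2, at 7.33 CPM in overexpression replicate 1 with the others at 4.31 to 4.62 CPM, and Cd14, at 15.8 CPM in replicate 1 with the others at 8.38 to 9.57 CPM. In the same replicate the proliferation genes Top2a (146 CPM), Cenpf (52.4 CPM), Ccna2 (39.8 CPM) and Bub1 (10.996 CPM) were high, as were Lox (63.5 CPM), Tnc (19.9 CPM) and Tcf21 (32.4 CPM), while Gas6 was low (341 CPM). Overexpression replicate 2 stood high in H2-Ab1 (23.97 CPM), Laptm5 (22.5 CPM), Itgax (2.02 CPM) and Csf2rb (5.34 CPM), and replicate 4 in Ctsd (586 CPM).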

How the results depend on the processing

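The count of markers called higher, 1 as reported, was 8 with scaling to the sarcomere list, 0 with the replicate block and 0 in the libraries with Xist only; leaving out 1 library gave 0 to 1. None was called lower under any of the 16 alternatives. The median log2 fold change of the markers, 0.21, was 0.81 with sarcomere scaling. Genes called in all, 644, numbered 8598 with sarcomere scaling, 1141 with DESeq2, 382 with the replicate block and 256 to 1151 with 1 library left out. Under sarcomere scaling, which raises every gene by about the fall of the list, log2 fold changes changed sign, among others, for Lyve1 (0.46), Cd163 (0.40), Ctsd (0.0204), Pecam1 (0.39), Tek (0.46), Cdh5 (0.60), Kdr (0.54), Tie1 (0.54) and Myl4 (0.43). Whether the replicate numbers pair the libraries could not be settled. Same-numbered libraries deviated together with r = 0.0136 to 0.0789, and libraries of unlike number with r = -0.101 to 0.152. Of 3 overexpression libraries, 2 correlated best with their own number. With the replicate block Trem2 had a log2 fold change of 1.57 and an edgeR adjusted p of 0.0913. Trem2 kept its direction in all 16 alternatives and passed in 9, with adjusted p of 0.00171 to 0.189. Some of these fits used fewer libraries, and the part of that in the lost calls was not tested. Trem2 reads numbered 9 to 66 per library, which limits its precision. For the markers that did not pass, a rise under the upper bound of the marker's own interval is compatible with these libraries. How small a rise could be detected at this depth and number of libraries was not tested.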

Other observations

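Genes of antigen presentation by MHC class II varied between libraries more than the macrophage markers did. H2-Aa had 8.44, 69.03, 17.7 and 5.59 CPM in FOG2 overexpression replicates 1 to 4, against 66.1, 59.7 and 23.5 CPM in wild type replicates 1 to 3, and Cd74, the invariant chain, had 9.11, 64.8, 20.5 and 5.82 CPM against 68.3, 56.4 and 21.3 CPM. Overexpression replicate 2 was at the level of wild type replicates 1 and 2, and the other overexpression libraries lay below all wild type ones. All 6 tested genes of the list had a negative log2 fold change (median -0.82), and 0 passed in edgeR, DESeq2 or limma-voom, with 0 at an unadjusted p under 0.05. Without overexpression replicate 2, H2-Ab1 alone passed (log2 fold change -1.89, edgeR adjusted p = 0.0276). Of the defining dendritic cell genes Flt3, Xcr1 and Clec9a had too few reads to test, and Zbtb46, which endothelium also expresses, stood at -0.40 ± 0.22. The 7 dendritic genes summed to 10.1 to 16.03 CPM in overexpression and 10.96 to 20.4 CPM in wild type.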
